A study of Homo sapiens with 32 samples.

Results

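The 9 libraries made from day 3 (D3) esophageal spheroids fell into sets far apart in SPRR1A, a small proline-rich protein of the cornified envelope. In 5 of the 9 libraries (numbers 1, 3, 4, 5 and 6) SPRR1A stood at 2000 TPM (a share of all transcripts in a library, scaled by gene length) or more, and in the other 4 (numbers 2, 7, 8 and 9) it stood below. These are called the SPRR1A-high and SPRR1A-low libraries; they were defined from a measured value and are not groups of the study. SPRR1A was 4493.3, 4544.5, 4660.6, 4768.7 and 3931.3 TPM in libraries 1, 3, 4, 5 and 6. It was 190.7, 234.2, 199.9 and 559.8 TPM in libraries 2, 7, 8 and 9, so no library lay near the threshold. All 12220 other genes tested are described below, and because the sets were chosen on a gene of the same libraries, the difference between them is given with no test.

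The study followed EPC2, a human esophageal epithelial line made immortal with telomerase and of wild-type genotype, from a monolayer at day 0 (D0, 10 libraries) to spheroids in Matrigel at D3 (9 libraries) and D11 (7 untreated and 6 given IL-13 at 20 ng/ml from D3). Spheroid cultures started with 40000 cells in 20 µl of Matrigel, in keratinocyte medium free of serum that held 0.6 mM CaCl2. Every spheroid culture received the ROCK inhibitor Y27632 (10 µM) until D3. The labels give 2 independent experiments as batches: 5 and 5 monolayers, 4 and 5 D3 libraries and 4 and 3 untreated D11 libraries came from batches 1 and 2. All material is 1 cell line, and the labels do not say which libraries came from separate cultures, so p-values measure the spread between these libraries, which may be technical. D3 libraries 2, 4, 8 and 9 are labelled batch 1 and libraries 1, 3, 5, 6 and 7 batch 2, so that the SPRR1A sets follow batch except in library 4 (batch 1, SPRR1A-high) and library 7 (batch 2, SPRR1A-low).

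Stratified squamous epithelium renews from basal cells that express KRT5, KRT14 and TP63, divide, and rest on a basement membrane. Cells that leave this layer stop dividing, change their keratins (KRT4 and KRT13 in the esophagus, KRT1 and KRT10 in the epidermis), strengthen their desmosomes and make the proteins of the cornified envelope, many of them encoded side by side in the epidermal differentiation complex. Raised calcium is a standard trigger of these steps in cultured keratinocytes.

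The deposited values are TPM rounded to 1 decimal, and depth is unknown. Mitochondrially encoded transcripts took 39.1% to 45.8% of the TPM in the SPRR1A-high libraries and 53.1% to 57.1% in the SPRR1A-low libraries, against 44.8% to 50.1% in monolayers and 14.8% to 27.9% in untreated D11 spheroids. The 81 ribosomal protein genes took 3.80% to 4.38% in the high set and 2.93% to 3.18% in the low set. Between 10592 and 10900 genes reached 1 TPM in the high set and between 10604 and 10774 in the low set. The part of the mitochondrial share in the differences below was not tested, and values with those transcripts removed are given for many of the gene lists. Across genes, libraries of the same set correlated at r = 0.988 to 0.993 in the high set and 0.987 to 0.994 in the low set, and libraries of different sets at 0.962 to 0.985; genes are not independent replicates.

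All 11 markers of esophageal squamous epithelium were listed in the table and 10 were tested. The other, EPCAM, was only 0.1 to 0.2 TPM in the high set and 0.3 to 0.4 TPM in the low set. KRT5 was 38964.2 to 44330.8 TPM in the high set and 30268.7 to 32714.3 TPM in the low set. Of 25 columnar, goblet and ciliated markers 13 were listed at 0 in every D3 library, and KRT19 supplied most of their summed level of 1969.4 to 2580.6 TPM in the high set and 2556.7 to 3416.9 TPM in the low set. Of 12 fibroblast markers 11 were under 1 TPM in every D3 library, the exception being COL1A1 at 23.9 to 30.3 TPM in the high set and 8.0 to 13.0 TPM in the low set. Of 17 immune and endothelial markers listed there, 14 were under 1 TPM throughout D3, with sums of 226.7 to 266 TPM and 221.5 to 267.3 TPM in the high and low sets that came from CD68, CSF1R and CD14. By these markers both sets were squamous, and the part of the other lists' levels in the results below was not tested.

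Differences are on the log2(TPM + 1) scale unless TPM is written. A gene is called separated when no library of one set overlapped the other, and its gap is the distance between the lowest library of the higher set and the highest library of the lower set. Of the 12220 genes, 1754 (14.4%) were separated with the high set above and 902 (7.38%) with the high set below. With a gap of 2-fold or more, 93 genes (0.761%) were higher in the high set and none (0%) lower. The median difference between the set medians over all genes was 0.03. Scaling moved these counts: 1860 genes were separated higher and 1639 lower under median-of-ratios scaling, 1434 and 2115 under quantile scaling, and 537 and 5449 once mitochondrial transcripts were removed, where the median over all genes was -0.28; the genes above a gap of 2-fold numbered 88, 83 and 76. In bulk RNA fewer cells of a type and less RNA per cell cannot be told apart.

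**Figure D1:**
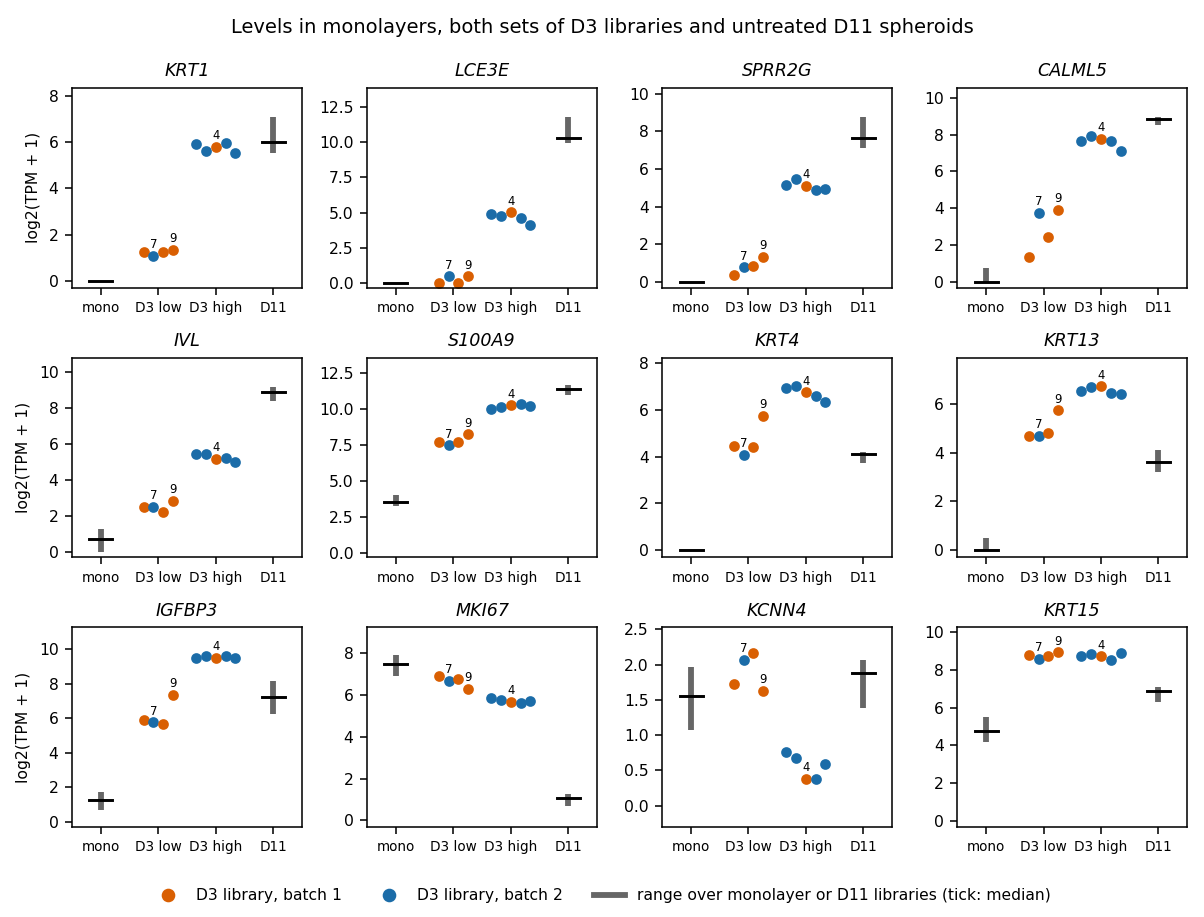
Levels of 12 genes on the log2(TPM + 1) scale (y axis) in 10 monolayers, 4 SPRR1A-low and 5 SPRR1A-high D3 libraries and 7 untreated D11 libraries (x axis); points are D3 libraries coloured by batch label with libraries 4, 7 and 9 numbered, and grey bars are ranges with the median. KRT1, LCE3E, SPRR2G, CALML5, IVL and S100A9 were higher in every high-set library, KRT4, KRT13 and IGFBP3 were above D11 there, MKI67 and KCNN4 were lower, and KRT15 overlapped.

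The cornified envelope, the crosslinked protein layer under the membrane of the outermost cells, made up the largest block of separated genes. Of its 53 genes tested 46 were separated and higher in the high set, 28 of them by 2-fold or more, and none was separated lower; the median difference was 1.68 against 0.03 over all genes. The summed level of this list (SPRR1A left out) was 0.562% to 0.630% of TPM in the high set and 0.0692% to 0.153% in the low set. Against the monolayer, 52 of the 53 rose in untreated D11 spheroids and 1 fell (limma, adjusted p under 0.05), beside 21.5% of all genes that rose and 64.6% that fell. Genes were tested only with at least 1 TPM in at least 6 libraries, spheroids included. Members near 0 in monolayers could therefore hardly fall, and a rise was likely beforehand.

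LCE3E, a late cornified envelope protein, was 28.7, 26.1, 31.6, 24.2 and 16.2 TPM in libraries 1, 3, 4, 5 and 6. It was listed at 0, 0.4, 0 and 0.4 TPM in libraries 2, 7, 8 and 9 and at 0 in every monolayer. The lowest high-set library held 40.5 times the highest low-set library, but D11 spheroids stood far above both, at 1000.5 to 3487.4 TPM with a median of 1285.7. LCE3D, its neighbour, was 101.1, 101.8, 112, 89.8 and 52.9 TPM in the high set and 0.8, 4.2, 0 and 3.8 TPM in the low set. CRCT1, a cysteine-rich gene of the same complex, was 73.9, 96.4, 113.5, 96.3 and 51.1 TPM against 3.0, 3.1, 2.5 and 7.3 TPM. Library 6 was lowest of its set in all 3 of these genes and in 38 of the 93 with a gap of 2-fold or more, and library 1 in 27 of the 93. Over all 1754 separated higher genes library 6 was lowest in 152 (8.67%) and library 1 in 863 (49.2%).

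The small proline-rich proteins, transglutaminase substrates that serve as cross-bridges in the envelope, followed SPRR1A itself. SPRR2G was 34.4, 43.7, 33.4, 28.1 and 29.9 TPM in libraries 1, 3, 4, 5 and 6, and 0.3, 0.7, 0.8 and 1.5 TPM in libraries 2, 7, 8 and 9. SPRR2B was 12.3, 22.5, 22.7, 9.8 and 12.2 TPM and was listed at 0 in all 4 low-set libraries, so no fold is given. SPRR2E was 74.5, 83.2, 92.5, 99.4 and 90.5 TPM against 3.0, 1.5, 3.1 and 8.7 TPM. SPRR1B, the closest relative of the gene that defined the sets, was 3312.8 to 3813.3 TPM against 376.9, 341, 356.8 and 928.7 TPM, and SPRR3 was 261.3 to 431.9 TPM against 18.2, 31.3, 22.4 and 68.2 TPM. SPRR2, LCE3 and similar paralogs are near-identical in sequence, and how reads were divided among them is not stated, so the level of a single member is uncertain.

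CALML5, a calmodulin-like protein of differentiating keratinocytes, was 202.1, 241, 216.4, 198.2 and 138.6 TPM in libraries 1, 3, 4, 5 and 6 and 1.6, 12.5, 4.4 and 13.9 TPM in libraries 2, 7, 8 and 9. IVL (involucrin), an early envelope scaffold, was 43, 41.6, 34.4, 36.8 and 30.2 TPM against 4.6, 4.7, 3.6 and 6.1 TPM. TGM1, the membrane transglutaminase that crosslinks the envelope, was 102.6 to 119.5 TPM against 23.9, 22.4, 23 and 36.6 TPM. All 3 were already above every monolayer in the low set, IVL at most 1.4 TPM there and TGM1 at most 1.4 TPM, and reached 335.5 to 578.5 TPM and 286.6 to 425 TPM in D11 spheroids.

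Many of these genes lie together in the genome, though not all: CALML5 is on chromosome 10 and TGM1 on chromosome 14. The epidermal differentiation complex, taken as the span from S100A10 to S100A13 (chr1:151982915-153631360, GENCODE 29, hg38), held 22 of the 93 genes with a gap of 2-fold or more (23.7%), 37 of the 1699 separated higher genes found in the annotation (2.18%), 0 of 873 separated lower genes, and 49 of 11585 genes tested (0.423%). The type II keratin cluster on chromosome 12 (chr12:52168996-52952901) held 5 of the 93 (5.38%) and 12 of all tested (0.104%), and the type I cluster on chromosome 17 (chr17:40654665-41624842) held 4 (4.30%) and 14 (0.121%).

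Promoters of members of this block are shown because their genes were higher together. AP-1, the family of JUN and FOS dimers, is a well-studied regulator of involucrin and SPRR promoters, and the genes shown were chosen to include promoters with and without its motif. Each line gives the 250 bases before the RefSeq start on GRCh38.p14, 5′ to 3′ on the gene's strand, with matches on either strand in capitals. The motifs marked are TGANTCA for AP-1 and TATAAA for the core promoter element that bears this name, and their letters do not overlap within these windows. The windows are chr1:152983831-152984080 (plus strand) for SPRR1A, chr1:153030953-153031202 (plus) for SPRR1B, chr1:153057513-153057762 (minus) for SPRR2A, chr1:153150891-153151140 (minus) for SPRR2G, chr1:152908296-152908545 (plus) for IVL, chr1:152566781-152567030 (minus) for LCE3E, chr1:152580517-152580766 (minus) for LCE3D and chr1:153071612-153071861 (minus) for SPRR2B.
SPRR1A: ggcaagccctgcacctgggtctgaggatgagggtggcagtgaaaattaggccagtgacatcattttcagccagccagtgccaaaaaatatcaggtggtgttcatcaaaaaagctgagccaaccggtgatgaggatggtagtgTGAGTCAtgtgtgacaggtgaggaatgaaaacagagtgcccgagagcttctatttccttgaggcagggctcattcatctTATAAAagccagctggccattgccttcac
SPRR1B: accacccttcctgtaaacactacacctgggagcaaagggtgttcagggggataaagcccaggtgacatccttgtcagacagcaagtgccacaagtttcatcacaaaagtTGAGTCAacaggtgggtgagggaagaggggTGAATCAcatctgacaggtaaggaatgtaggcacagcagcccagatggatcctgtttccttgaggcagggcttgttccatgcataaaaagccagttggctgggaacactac
SPRR2A: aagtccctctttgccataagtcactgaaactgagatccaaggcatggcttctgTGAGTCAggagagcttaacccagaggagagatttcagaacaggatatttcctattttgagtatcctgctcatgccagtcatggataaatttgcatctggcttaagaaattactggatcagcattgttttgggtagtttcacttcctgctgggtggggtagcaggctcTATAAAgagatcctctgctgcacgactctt
SPRR2G: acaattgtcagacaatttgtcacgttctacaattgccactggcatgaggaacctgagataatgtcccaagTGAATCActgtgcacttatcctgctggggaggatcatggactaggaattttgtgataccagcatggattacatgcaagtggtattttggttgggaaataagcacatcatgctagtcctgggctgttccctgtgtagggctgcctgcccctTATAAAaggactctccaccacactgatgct
IVL: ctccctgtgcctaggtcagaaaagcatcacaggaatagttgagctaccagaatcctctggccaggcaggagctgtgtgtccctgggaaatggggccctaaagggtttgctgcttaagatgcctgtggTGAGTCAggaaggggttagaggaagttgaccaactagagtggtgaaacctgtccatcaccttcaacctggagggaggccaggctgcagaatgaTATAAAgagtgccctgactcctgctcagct
LCE3E: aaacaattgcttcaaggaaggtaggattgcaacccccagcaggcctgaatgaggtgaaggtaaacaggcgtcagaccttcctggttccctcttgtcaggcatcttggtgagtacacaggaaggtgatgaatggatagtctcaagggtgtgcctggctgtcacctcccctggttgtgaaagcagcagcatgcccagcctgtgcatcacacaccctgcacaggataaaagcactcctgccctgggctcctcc
LCE3D: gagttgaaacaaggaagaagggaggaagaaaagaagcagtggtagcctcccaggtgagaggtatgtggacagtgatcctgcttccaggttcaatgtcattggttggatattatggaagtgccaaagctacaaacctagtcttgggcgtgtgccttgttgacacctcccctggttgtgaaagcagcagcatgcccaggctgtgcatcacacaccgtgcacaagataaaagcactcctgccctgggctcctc
SPRR2B: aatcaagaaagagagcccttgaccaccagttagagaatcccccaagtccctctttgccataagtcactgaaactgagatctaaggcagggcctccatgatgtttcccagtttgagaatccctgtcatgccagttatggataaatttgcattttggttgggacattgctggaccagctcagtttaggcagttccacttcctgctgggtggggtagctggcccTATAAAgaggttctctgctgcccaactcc
SPRR1A, SPRR2A, SPRR2G and IVL held 1 AP-1 match each, SPRR1B held 2, and LCE3E, LCE3D and SPRR2B held none. Of the 7 genes with the 10 largest gaps that are in the promoter table, only SPRR2G held an AP-1 match. Over the genes found in the RefSeq promoter table, an AP-1 match lay in 16 of 61 promoters of genes with a gap of 2-fold or more (26.2%), in 7.14% of 1345 promoters of all separated higher genes, in 3.70% of 703 promoters of separated lower genes and in 4.27% of 9531 promoters of genes tested. TATAAA lay in 32.8%, 9.14%, 5.26% and 5.98% of the same sets. TTTGAA on either strand, the core of the cell cycle homology region found in promoters of many mitotic genes, lay in 13.8% of the separated lower promoters and 8.33% of those tested. AACCNGTT (GRHL), TTTGGCGC (E2F) and ACGTG (HIF) were also searched, in the 4 sets as ordered for AP-1. GRHL lay in 4.92% (3 of 61), 1.64%, 0.996% and 1.20%, and E2F in 0%, 0.595%, 1.42% and 0.881%. HIF lay in 21.3%, 20.6%, 23.0% and 23.3%, with no excess among the higher genes. SPRR promoters are related by duplication and are not independent, and a match is a run of letters, not a bound site.

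Suprabasal and stress keratins were higher by the largest median difference of the lists. Of 15 tested, 14 were separated higher, 9 by 2-fold or more, with a median of 2.32, and 14 rose in D11 against monolayer. KRT1, a keratin of the suprabasal epidermis that is scarce in healthy esophagus, had the largest gap of all genes: it was 59.3, 48.4, 54.9, 62.3 and 45.5 TPM in libraries 1, 3, 4, 5 and 6 and 1.4, 1.1, 1.4 and 1.5 TPM in libraries 2, 7, 8 and 9. It was listed at 0 in all 10 monolayers and was 45.6 to 136.6 TPM (median 63) in D11, so that 4 of the 5 high-set libraries lay within the D11 range and library 6 just under it. Its partner KRT10 was 600.8, 450.9, 537.5, 586.9 and 451.2 TPM against 51.8, 45.5, 49.6 and 72.1 TPM, and reached 1242.1 to 1685.6 TPM in D11.

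KRT16, a keratin of activated and hyperproliferative epithelium, was 6154.3, 6292.6, 7458.4, 7425.2 and 6311.8 TPM in the high set and 970.7, 1000.5, 988.8 and 2358.7 TPM in the low set, library 9 standing above the other 3. KRT6A, its partner, was 19693.4 to 21366.3 TPM against 11098.4 to 12078.3 TPM. Both were below D11, where KRT16 was 27751.6 to 35875.6 TPM. ASPRV1, a protease that processes filaggrin, went further than D11: it was 46.9, 31.3, 34.8, 31.7 and 23.7 TPM in the high set, 1.5, 0.6, 1.4 and 1.3 TPM in the low set, and 2.1 to 21.2 TPM in D11.

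**Figure D2:**
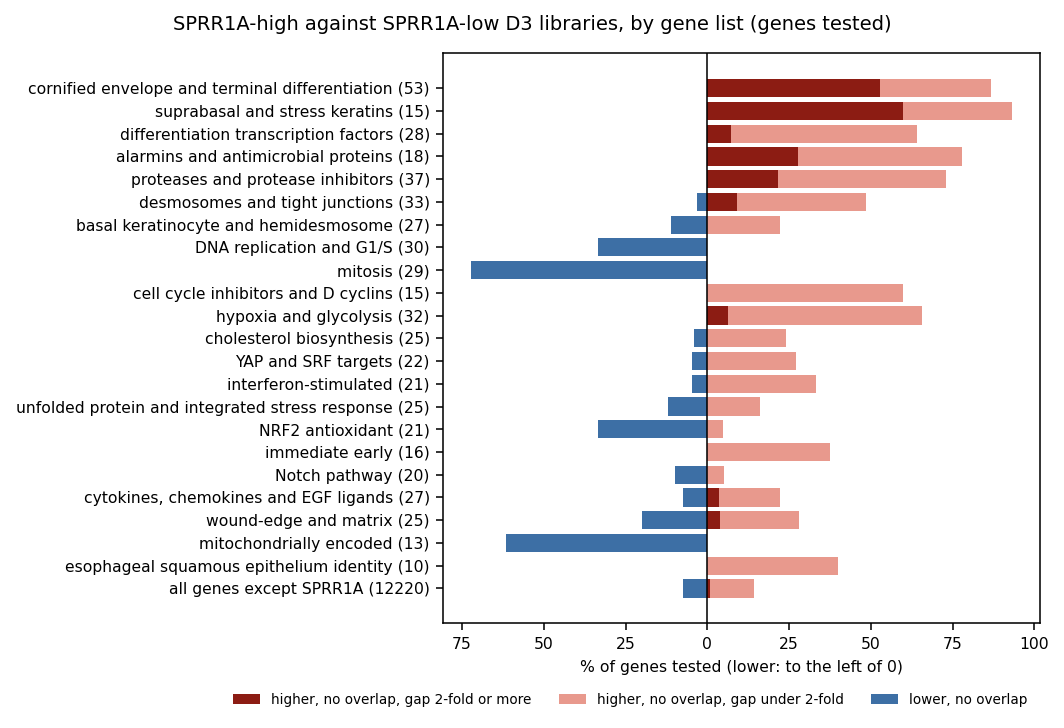
Share of each gene list (y axis, number of genes tested in brackets) that was separated between the D3 sets, in percent (x axis): higher in the SPRR1A-high libraries to the right, lower to the left, dark red for a gap of 2-fold or more. The keratin and cornified lists reached 14 of 15 and 46 of 53 genes higher, mitosis 21 of 29 lower, and all genes 14.4% higher and 7.38% lower.

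Transcription factors of squamous differentiation were separated higher in 18 of 28 cases, 2 by 2-fold or more, with a median of 0.51; 24 rose in D11 and 1 fell. Once mitochondrial transcripts were removed, 11 were higher and 1 was lower (median 0.13), beside 537 and 5449 of all 12207 genes. HOPX, a homeodomain protein without DNA binding, was 7.4, 7.1, 7.6, 8.6 and 6 TPM in libraries 1, 3, 4, 5 and 6 and 0.7, 0.5, 0.6 and 1.4 TPM in libraries 2, 7, 8 and 9. ZNF750, a zinc finger factor of terminal differentiation, was 22.9, 23.6, 31.7, 32.2 and 22 TPM against 4.9, 4.1, 4.3 and 10.2 TPM, and was listed at 0 in every monolayer. GRHL3 was 7 to 9.7 TPM against 3.9 to 5.3 TPM, and KLF4 was 201.8 to 321.9 TPM against 104.5 to 154.1 TPM. A gap of 2-fold or more was thus reached by 2 of 28 factors and by 28 of the 53 cornified genes above.

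Alarmins and antimicrobial proteins were separated higher in 14 of 18 cases, 5 by 2-fold or more (median 0.82), and 17 rose in D11. S100A8, which forms calprotectin with S100A9, was 2910.5, 2457.5, 2767.6, 3185.8 and 2891.8 TPM in the high set and 391.4, 262.8, 329.3 and 681.6 TPM in the low set. S100A9 was 1051.1 to 1287.2 TPM against 177.7 to 303.1 TPM, and S100A12 was 33.6 to 47.7 TPM against 2.3 to 4.6 TPM. Of 37 proteases and protease inhibitors 27 were separated higher, 8 by 2-fold or more (median 1.00), and 33 rose in D11. PI3 (elafin), an elastase inhibitor, was 767.4, 633.2, 640.1, 637.9 and 729.1 TPM against 68.7, 62.5, 86.5 and 129.2 TPM, and SLPI, a related inhibitor, was 225.1 to 286.9 TPM against 25.1 to 62.5 TPM.

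Of 33 desmosome and tight junction genes 16 were separated higher, 3 by 2-fold or more, and 1 was lower (median 0.44); 24 rose and 8 fell in D11. With mitochondrial transcripts removed 9 were higher and 6 lower (median 0.12), beside 537 and 5449 of all 12207 genes. DSG1, the desmoglein of upper layers, was 22.7, 20.1, 23.8, 26.4 and 19.5 TPM in the high set and 2.5, 2.5, 2.2 and 6.2 TPM in the low set, and was listed at 0 in every monolayer. CLDN17, a claudin, was 9.2 to 12.6 TPM in the high set and was listed at 0 in libraries 2, 8 and 9, with 1.5 TPM in library 7. DSG2, the desmoglein of simple epithelia and basal cells, was the separated lower gene, at 31.5 to 34.9 TPM against 39.6 to 49.2 TPM, and it fell in D11 by 0.87 (SE 0.04, limma adjusted p = 2.3e-13).

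Basal genes did not move as a block. Of 27 tested, 6 were separated higher and 3 lower, with a median of 0.02, beside 14.4% and 7.38% of all genes. In D11 8 rose and 17 fell, beside 21.5% and 64.6% of all genes. KRT14 was higher, at 34567.9 to 39066.1 TPM against 25618.5 to 27535.4 TPM, a gap of 0.33 that closed to 0 under quantile scaling. With mitochondrial transcripts removed both KRT14 (gap -0.10) and KRT5 (gap -0.13) overlapped. KRT15, a keratin of basal progenitors, overlapped at 368.7 to 479.9 TPM against 379.9 to 480.9 TPM, and so did TP63 at 17.4 to 21.5 TPM against 15.3 to 17.9 TPM. NGFR, a receptor of basal cells, was lower at 17 to 20.4 TPM against 25.5 to 29.7 TPM, and ITGA6, the hemidesmosomal integrin, at 62.1 to 70.8 TPM against 73.5 to 86.8 TPM. For KRT15 and TP63 the sets could not be separated, while the separated basal genes went both ways in the values as deposited. This split depended on scaling: 6 were higher and 5 lower with median-of-ratios scaling, and 2 and 8 with quantile scaling. With mitochondrial transcripts removed 1 was higher and 13 were lower, beside 537 and 5449 of all genes.

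The esophageal keratins passed beyond their D11 level. KRT4 was 124.1, 128.4, 107.3, 96 and 81.6 TPM in libraries 1, 3, 4, 5 and 6, and 21.3, 16, 20.1 and 52.6 TPM in libraries 2, 7, 8 and 9. It was listed at 0 in all 10 monolayers and was 12.3 to 17.7 TPM in D11, so every high-set library stood above every D11 library. KRT13, its partner, was 92.4, 103.9, 105.4, 87 and 85.6 TPM against 24.7, 24.9, 27 and 52.6 TPM, with 8.3 to 16.2 TPM in D11. Their gaps of 0.62 and 0.69 shrank to 0.13 and 0.20 with mitochondrial transcripts removed. Both rose between monolayer and D11 (KRT4 by 4.05, SE 0.06, limma adjusted p = 2.6e-19; KRT13 by 3.46, SE 0.12, adjusted p = 2.6e-14), but D11 is not their highest point among these samples.

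Every high-set library was above every D11 library in 22.1% of all genes, in 220 of the 1754 separated higher genes (12.5%) and in 4 of the 93 with a gap of 2-fold or more (4.30%), so this was less common among the genes higher in the high set than among all genes. IGFBP3, a secreted binding protein of insulin-like growth factors, was 718.9, 761.3, 722.6, 783.3 and 724.4 TPM in the high set, 58.8, 52.8, 48.9 and 160.9 TPM in the low set and 75.5 to 284.5 TPM in D11. TYMP (thymidine phosphorylase) was 97.2, 117.2, 133.7, 140.3 and 126.5 TPM against 25.3, 25.7, 30.2 and 41.1 TPM, with 32.1 to 84.4 TPM in D11; it was the 1 gene of the 93 that did not pass the test between D11 and monolayer (difference 0.28, SE 0.41, limma adjusted p = 0.53). LOX, a collagen crosslinking oxidase, was 5.6 to 8.7 TPM against 0.5 to 2.3 TPM, with 0.9 to 2.9 TPM in D11. WNT4, a Wnt ligand, was 7.6 to 11.6 TPM against 2.1 to 4.4 TPM and 1.2 to 2.3 TPM in D11, and CD248, a membrane glycoprotein, was 39.3 to 51.2 TPM against 10.3 to 29.2 TPM and 0.2 to 2.6 TPM, a gap that closed (0.00) with mitochondrial transcripts removed. CXCL14, a chemokine of squamous epithelium, was 60.4 to 90 TPM against 32.9 to 42.9 TPM and 5.6 to 15.5 TPM in D11. Of the genes named here, KRT13, CD248 and CXCL14 were above every D11 library in the low set also, whereas KRT4 and WNT4 overlapped D11 there. TYMP, LOX, WNT4 and CD248 were chosen after their values were seen.

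Cell division genes were the main block lower in the high set. Of 29 mitosis genes 21 were separated lower and none higher (median -0.61), and of 30 replication genes 10 were lower and none higher (median -0.70); 28 and 26 fell in D11. The separated lower genes were 29 and 26 with mitochondrial transcripts removed, beside 5449 of all 12207 genes. MKI67, a marker of cycling cells, was 58.1, 52.7, 49.7, 48.7 and 52.2 TPM in libraries 1, 3, 4, 5 and 6 and 118.1, 100.6, 109.9 and 77.5 TPM in libraries 2, 7, 8 and 9. Monolayers held 118.1 to 237.3 TPM and D11 spheroids 0.6 to 1.4 TPM, so both sets stood far above every D11 library. ASPM, a spindle pole protein, was 6 to 6.8 TPM against 10.5 to 15.4 TPM, and TOP2A (topoisomerase 2 alpha) was 33.4 to 44.2 TPM against 49.9 to 67.8 TPM. MCM6, a subunit of the replicative helicase, was 5.7, 6, 4.8, 4.3 and 5.7 TPM against 11.8, 11.1, 12.9 and 7.1 TPM. MCM2 overlapped, at 10.1 to 12.2 TPM against 18.4, 23.4, 21.8 and 11.8 TPM, with library 9 inside the range of the high set.

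Inhibitors of cyclin-dependent kinases and D cyclins were separated higher in 9 of 15 cases (median 0.50). With mitochondrial transcripts removed 6 were higher and 5 lower, beside 537 and 5449 of all 12207 genes. CDKN2B (p15) was 135.3, 128.4, 182.8, 213.3 and 144 TPM in the high set and 43.7, 34.7, 32.2 and 68.2 TPM in the low set, with 18.7 to 40 TPM in monolayers and 207.8 to 330.2 TPM in D11. CDKN1A (p21) was 243.5 to 335.5 TPM against 150.9 to 168.7 TPM, but monolayers held 227.2 to 535.9 TPM, so that the low set was below every monolayer. Hypoxia and glycolysis genes were separated higher in 21 of 32 cases, 2 by 2-fold or more (median 0.46), and 28 rose in D11. With mitochondrial transcripts removed only 7 were higher and 3 were lower (median 0.13). CA9, the carbonic anhydrase induced by low oxygen, was 22.3, 31.6, 31.1, 33.8 and 43.9 TPM against 1.8, 2.8, 2 and 5.6 TPM and reached 93.7 to 163.6 TPM in D11. NDRG1, another gene of this list, was 225.5 to 329.3 TPM against 59.9 to 98.7 TPM, and library 6 was the highest in both.

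Genes lower in the high set had no gap of 2-fold on the log2(TPM + 1) scale, which understates differences at low levels. With mitochondrial transcripts removed 6 genes passed it, namely KCNN4 (gap 1.36), CYP1B1 (1.32), CX3CL1 (1.27), CYP1A1 (1.14), MCAM (1.10) and SV2A (1.02). KCNN4, a calcium-activated potassium channel, had the largest: it was 0.7, 0.6, 0.3, 0.3 and 0.5 TPM in libraries 1, 3, 4, 5 and 6 and 2.3, 3.2, 3.5 and 2.1 TPM in libraries 2, 7, 8 and 9, where the lowest held 3 times the TPM of the highest library of the high set. CYP1A1 and CYP1B1, the standard targets of the aryl hydrocarbon receptor, were both among the 10 leading genes in this direction. CYP1A1 was 3.5, 3.8, 4.7, 5.6 and 3.9 TPM against 13.8, 11.3, 12.2 and 9.7 TPM, and CYP1B1 was 1.5, 1.4, 1.5, 1.6 and 1.3 TPM against 5.1, 4.9, 4.3 and 3.6 TPM. Both sets were above every monolayer for CYP1B1 (0.1 to 0.7 TPM). D11 libraries held 2.1 to 5.1 TPM of CYP1A1 and 0.2 to 1.8 TPM of CYP1B1, so the low set was above D11 for both.

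Other lower genes were MCAM, an adhesion molecule (10.3 to 14.4 TPM against 22.3 to 32.6 TPM), CX3CL1, a membrane-bound chemokine (0.6 to 0.9 TPM against 2.2 to 3 TPM), CYP4F11, a fatty acid hydroxylase (1.9 to 2.8 TPM against 4.7 to 6.2 TPM), LRP8, a lipoprotein receptor (1.5 to 1.9 TPM against 3.3 to 4.8 TPM), and SV2A, a vesicle protein (0.5 to 0.8 TPM against 1.6 to 2.3 TPM). MT-ND4L, a subunit of respiratory complex I, was 15819.6 to 17835.4 TPM against 27386.1 to 29022.1 TPM, and 8 of the 13 mitochondrially encoded genes were separated lower and none higher. Of 21 NRF2 antioxidant genes 7 were lower and 1 higher (median -0.13). With mitochondrial transcripts removed 15 were lower and none higher (median -0.47). That removal moved genes in general, with 5449 of all 12207 lower, 537 higher and a median of -0.28. GCLM, a subunit of the enzyme that limits glutathione synthesis, was 4.4 to 5.7 TPM against 8 to 10.3 TPM, and GPX2, a glutathione peroxidase, was 11.3 to 18.7 TPM against 24.5 to 29 TPM. CSF3, a granulocyte growth factor with 368.5 to 679.5 TPM in monolayers, was 2.5, 3.2, 4.8, 6.5 and 4.4 TPM against 16, 41.1, 30.5 and 8.1 TPM.

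The comparison of 7 untreated D11 libraries with 10 monolayers took in no D3 library, though D3 libraries counted in the low-value filter. Of 12221 genes 2628 (21.5%) rose and 7889 (64.6%) fell (limma with batch as a term, adjusted p under 0.05); with median-of-ratios scaling the split was 4997 and 5014. Of the 93 genes with a gap of 2-fold or more 92 rose and none fell, and of all 1754 separated higher genes 1143 (65.2%) rose, 367 (20.9%) fell and 244 did not pass. Of the 902 separated lower genes 858 (95.1%) fell, against 64.6% of all genes, and 18 rose. Over 7 alternative scalings, filters and pseudocounts, 97.3% to 100% of the genes with a gap of 2-fold or more rose, 64.7% to 83.2% of the separated higher genes rose, and 81.9% to 96.8% of the lower genes fell. The 93 were mostly near zero at the start: 18 were listed at 0 in every monolayer and 55 were at 1 TPM or less in every monolayer. Those 55 could hardly fall and passed the low-value filter mainly through spheroid libraries. That none of them fell was therefore nearly fixed in advance, and so in large part was their rise. Neither count is read as support. In 53 of the 93 (57.0%) every low-set library was already above every monolayer, which held for 5.78% of all genes. In 81 (87.1%) every D11 library was above every high-set library, which held for 21% of all genes.

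**Figure D3:**
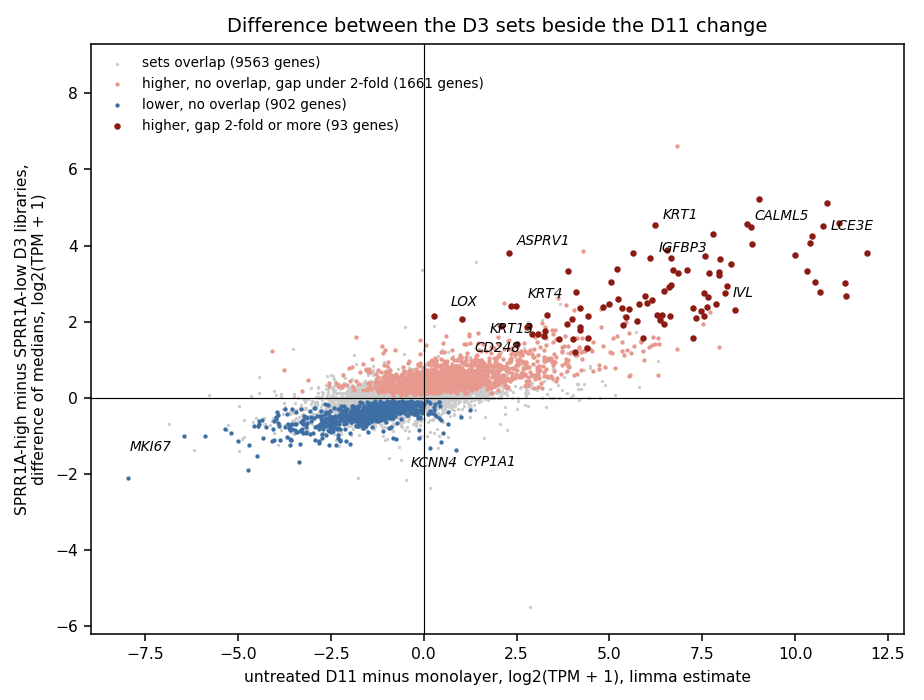
Each point is a gene; the x axis is untreated D11 minus monolayer and the y axis the difference between the medians of the SPRR1A-high and SPRR1A-low D3 libraries, both on the log2(TPM + 1) scale, coloured by separation of the sets. Of the 93 dark red genes 92 rose in D11; KRT4, KRT13, IGFBP3 and ASPRV1 lie high in the plot for their D11 change, and MKI67, KCNN4 and CYP1A1 lie below 0; 1 overlapping gene is not drawn.

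Placing each D3 library between the mean of monolayers (0%) and of D11 libraries (100%), the 1051 genes that rose by 1 or more gave a median position of 41.2%, 43.2%, 48.8%, 49.2% and 47.5% in libraries 1, 3, 4, 5 and 6. The median was 11.8%, 11.2%, 11.8% and 18.4% in libraries 2, 7, 8 and 9. The sets did not overlap here under any of 7 alternatives, and the high set was the farther along for rising genes. The 2953 genes that fell by 1 or more gave 65.3%, 64.4%, 55.9%, 58.6% and 59.1% in the high set and 45.01%, 47.3%, 46.0% and 61.2% in the low set. Library 9 lay within the high set by falling genes, and the sets separated on this measure only under the 3 other scalings (high set at least 41.0% and low set at most 32.8% with median-of-ratios scaling). By list, the cornified genes stood at 39.2% to 53.7% in the high set and 4.55% to 9.71% in the low set, suprabasal keratins at 73.7% to 76.0% and 21.5% to 29.6%, rising hypoxia genes at 21.9% to 35.3% and 1.96% to 9.34%, and mitosis genes at 24.6% to 31.4% and 3.13% to 20.0%. The 6 rising genes among the esophageal markers stood at 133% to 142% and 94.8% to 116%, past D11 in the high set. The distance between the sets along this path was therefore not the same in every list.

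**Figure D4:**
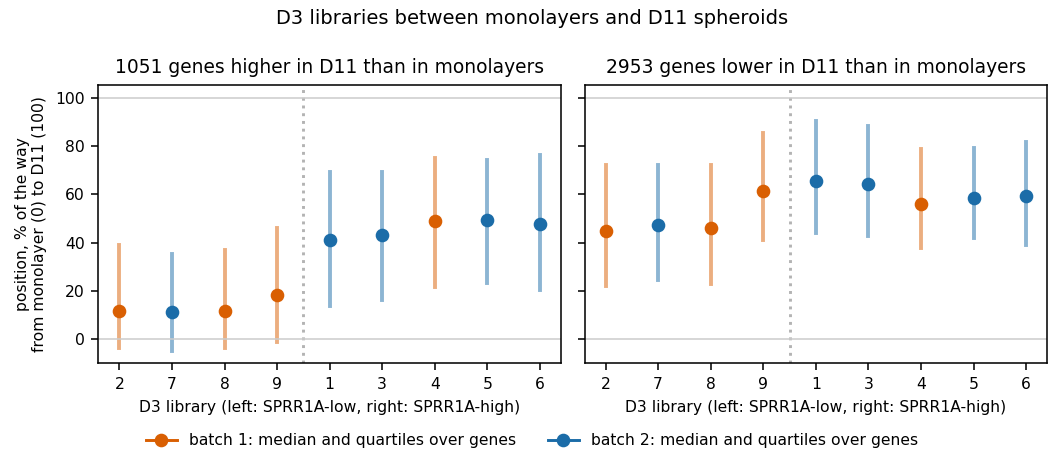
Position of each D3 library (x axis, SPRR1A-low left, SPRR1A-high right, coloured by batch label) in percent of the way from the monolayer mean (0) to the D11 mean (100, y axis), as the median (point) and quartiles (line) over 1051 rising and 2953 falling genes. For rising genes the low set lies at 11.2% to 18.4% and the high set at 41.2% to 49.2%; for falling genes library 9 lies at 61.2%, among the high set.

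Library 9 was the low-set library nearest to the high set. It was the highest of the low set in 72 of the 93 genes with a gap of 2-fold or more and in 684 of the 1754 separated higher genes (39.0%), and the lowest of the low set in 614 of the 902 lower genes (68.1%). Along the first principal component of the D3 libraries (58.8% of variance) the high set lay at 15.1 to 25.3, libraries 2, 7 and 8 at -31.2, -28.1 and -28.7, and library 9 at -14.1. Without library 9, 158 genes were higher by 2-fold or more in place of 93, and 2149 were separated lower in place of 902. Around a gap of 2-fold, ECM1, LCE2B and LOX lay just inside (1.00 each), and KCTD11 (0.98), CRNN (0.97) and IGFL2 (0.96) just outside.

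The high set was not uniform: libraries 4 and 5, one from each batch, held higher levels of stress response genes than the other 7. These genes were chosen after their values were seen. CHAC1, a glutathione-degrading enzyme induced by ATF4, was 135.8 and 148.6 TPM in libraries 4 and 5 and 2.3 to 6.8 TPM in the other 7. DDIT3 (CHOP), a transcription factor of the integrated stress response, was 42.3 and 48.6 TPM against 1.5 to 4.9 TPM. TRIB3, a pseudokinase downstream of ATF4 and CHOP, was 43.7 and 54.1 TPM against 7.9 to 17.2 TPM, STC2, a secreted glycoprotein, was 51.9 and 69.8 TPM against 5.7 to 11.2 TPM, and SESN2 (sestrin 2) was 31.4 and 34.6 TPM against 5.4 to 6.9 TPM. Both libraries lay within the range of untreated D11 spheroids for CHAC1 (35.9 to 175.7 TPM) and DDIT3 (15.9 to 54.1 TPM). Monolayers ran from 20.1 to 282.8 TPM of CHAC1 and 1.6 to 45.8 TPM of DDIT3, and their stress response genes differed by batch. The summed level of the stress list was 0.531% to 0.571% of TPM in batch 1 monolayers and 1.36% to 1.40% in batch 2 monolayers. ATF3, a member of that list, was higher by 3.01 in batch 2 monolayers (SE 0.06, limma adjusted p = 1.4e-10).

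Of the 25 stress genes listed (unfolded protein response and integrated stress response) 14 (56.0%) were higher in libraries 4 and 5 than in each of the other 7, 6 by 2-fold or more; over all genes these counts were 1904 (15.6%) and 11. Other lists stood as high or nearly so by the first count, with 16 of 28 differentiation factors (57.1%), 8 of 16 immediate early genes (50%) and 12 of 27 cytokines (44.4%), of which 1 gene in all, a cytokine list member, passed 2-fold. Chaperones of the list did not take part in the same way: HSP90B1 was 66.2 to 83.6 TPM in the high set and 98.5 to 127.7 TPM in the low set, with libraries 4 and 5 at 66.2 and 68 TPM, and PDIA4 was 35.4 to 39.5 TPM against 47.1 to 55.9 TPM. HERPUD1, a gene of endoplasmic reticulum associated degradation, was 33.5 and 35.6 TPM in libraries 4 and 5 against 10.5 to 13.4 TPM. HBEGF, an EGF receptor ligand, was 17.9 and 25.2 TPM against 4.9 to 7.6 TPM. TNFAIP3 and BIRC3, both targets of NF-kB, were 31.1 and 32.1 TPM and 8.2 and 10.8 TPM in libraries 4 and 5, against 15.5 to 19.5 TPM and 4.1 to 4.7 TPM in the other 3 high-set libraries and 6.5 to 10.7 TPM and 1.9 to 2.1 TPM in the low set. The second principal component (11.9% of variance) placed libraries 4 and 5 at -14.6 and -11.1, libraries 8, 7 and 6 at -7.59, -5.70 and -1.49, library 2 at 0.10 and libraries 3, 9 and 1 at 10.7, 11.6 and 18.0.

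**Figure D5:**
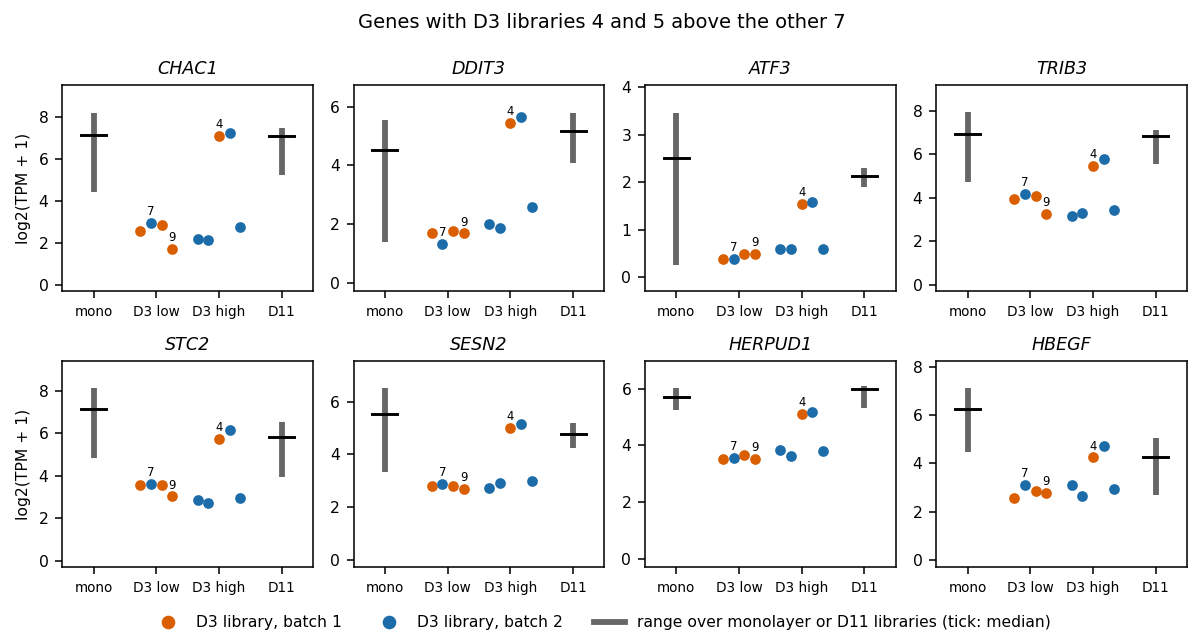
Levels of 8 genes on the log2(TPM + 1) scale (y axis) in monolayers, both D3 sets and untreated D11 libraries (x axis), drawn as in the plot of levels by library. Libraries 4 (batch 1) and 5 (batch 2) stand alone above the other 7 D3 libraries, as in CHAC1 with 135.8 and 148.6 TPM against 2.3 to 6.8 TPM.

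Other programmes overlapped between the D3 sets in most of their genes, as did 9564 of all 12220 genes. The lists given here and in the next paragraph, except Notch, overlapped in a smaller share of their genes than that. Of 25 cholesterol synthesis genes 6 were separated higher and 1 lower (median 0.09) while 19 fell in D11, as did 64.6% of all genes. HMGCS1 was 107.6 to 160 TPM in the high set and 121.3 to 160.7 TPM in the low set. Of 22 targets of YAP and SRF 6 were higher and 1 lower (median 0.08) while 21 fell in D11; CCN2 was 1.1 to 1.7 TPM against 0.8 to 1.8 TPM, with 112.6 to 248.5 TPM in monolayers, so that both sets stood below every monolayer. THBS1, with 2909.6 to 3876 TPM in monolayers, was 72 to 99.4 TPM in the high set and 123.6, 152.4, 140.5 and 74.2 TPM in the low set, library 9 again lying within the high set. Of 21 interferon-stimulated genes 7 were higher and 1 lower (median 0.33). IFI6 was 6.1 to 10.4 TPM against 3.4 to 4.1 TPM, below the 14.3 to 113.4 TPM of monolayers. IRF9 was 16.3 to 30.8 TPM against 6.2 to 11.9 TPM, and only its high set reached the monolayer range of 21.4 to 137 TPM. ISG15 overlapped between the sets at 2.1 to 3.3 TPM against 1.7 to 2.8 TPM.

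Of 20 Notch genes 1 was higher and 2 were lower (median 0.08). NOTCH3, the suprabasal receptor, was 35.6, 41.9, 54.3, 54.1 and 46.2 TPM in the high set and 21.1, 22.8, 23.5 and 40.9 TPM in the low set, so that library 9 overlapped, and HEY1, a target, was 1.2 to 2.2 TPM against 2.7 to 5.8 TPM. Of 16 immediate early genes 6 were higher and none lower (median 0.36), DUSP1, a MAP kinase phosphatase, at 47.2 to 64.6 TPM against 19.2 to 27.7 TPM. Of 27 cytokines, chemokines and EGF ligands 6 were higher and 2 lower (median 0.14); IL36RN, the IL-36 receptor antagonist, was 10.9 to 14.1 TPM against 1.2 to 2.1 TPM. Of 25 wound-edge and matrix genes 7 were higher and 5 lower (median 0.01), TNC (tenascin C) being lower at 2.6 to 3.6 TPM against 4.3 to 6.3 TPM. With mitochondrial transcripts removed, the medians of the basal, cholesterol, YAP and SRF, stress response, Notch, cytokine and wound-edge lists were below 0, at -0.26, -0.30, -0.23, -0.33, -0.24, -0.0068 and -0.22, beside -0.28 over all genes. Over all 12207 genes then tested 537 were higher and 5449 lower, so the lower counts that follow are not read as particular to a list. By list, genes higher and lower then numbered 1 and 11 (cholesterol), 0 and 10 (YAP and SRF), 0 and 11 (Notch) and 3 and 10 (wound-edge). They numbered 3 and 4 (interferon), 2 and 0 (immediate early) and 5 and 2 (cytokines) in the other lists given here.

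A smaller number of genes went against the D11 change. The 367 separated higher genes that fell in D11 included FABP4, a fatty acid binding protein (2.8 to 5 TPM in the high set, 0.3 to 1.1 TPM in the low set, at most 0.4 TPM in D11), APLN, the apelin peptide (9.5 to 11.9 TPM against 2.8 to 5.3 TPM), and IFFO2, an intermediate filament family gene (42.4 to 43.3 TPM against 25.2 to 28.9 TPM, and 11.6 to 16.3 TPM in D11). The 18 separated lower genes that rose included CYP1A1, CYP1B1, SCNN1A, a sodium channel subunit (3.2 to 3.9 TPM against 5.8 to 6.3 TPM, and 11.9 to 15.9 TPM in D11), and CCNG1 (cyclin G1, 43.5 to 50.2 TPM against 60 to 78.6 TPM). These were chosen after their values were seen. APLN did not pass the D11 test under median-of-ratios or quantile scaling, CYP1A1, CYP1B1 and SCNN1A did not with mitochondrial transcripts removed, and CCNG1 then reversed to -0.11.

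Grouped by batch label, D3 libraries showed 0 genes (0%) higher and 0 (0%) lower in batch 2 (limma over the 9 D3 libraries, adjusted p under 0.05), with 345 genes at an unadjusted p under 0.05 and 0 in a fit over the 26 untreated libraries. Without overlap between batches there were 8 genes higher in batch 2 (0.0655%) and 24 lower (0.196%). KRT1 differed by 2.41 between batches at D3 (SE 1.26, limma adjusted p = 0.79) and SPRR2G by 2.33 (SE 1.19, adjusted p = 0.79), both within the spread of the libraries, since libraries 4 and 7 lay with the other batch. Both genes were chosen for gaps between sets that cross the batch labels. That choice widens this spread, so nothing is read from these 2 p-values. Leaving out libraries 4 and 7 makes the batches identical with the sets, and nothing is read from the 1138 genes then called higher and 505 called lower. Among genes without overlap between batches, ETV2 was 2.6 TPM in library 4 and 2.9 TPM in library 7, with 3 to 3.8 TPM in the other batch 2 libraries and 1.5 to 2.5 TPM in the other batch 1 libraries.

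The same batches differed in libraries that the sets did not use. In untreated D11 spheroids 590 genes (4.83%) were higher and 4610 (37.7%) lower in batch 2, and in monolayers 3840 (31.4%) were higher and 4745 (38.8%) lower (limma, adjusted p under 0.05); under median-of-ratios scaling the D11 split was 1953 and 1394. Of the 93 genes with a gap of 2-fold or more 31 were higher and 17 lower in batch 2 at D11, and 21 and 12 in monolayers. In every monolayer 55 of the 93 were at 1 TPM or less, which leaves little room for a call there. Of all 1754 separated higher genes 220 were higher and 483 lower in batch 2 at D11, and 861 and 347 in monolayers. Of the 902 separated lower genes 404 were lower and 13 higher in batch 2 at D11, and 642 and 122 in monolayers. The interaction of batch with D3 against D11 passed for 1315 genes with a positive difference (10.8%) and 103 with a negative one (0.843%). Of the 93 none (0) passed in either direction, but they were chosen for a gap between sets that cross the batch labels in libraries 4 and 7. That choice widens their spread within batches at D3 (interaction SE 1.53 for KRT1 and 1.71 for LCE3D), so nothing is read from this 0.

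Batch differences taken from monolayers and D11 only were also followed in libraries 4 and 7. They were genes called in the same direction in both comparisons with a difference of 0.5 or more in each: 38 were higher and 300 lower in batch 2 (the floor of 0.5 was chosen after seeing the data). Their mean difference (higher minus lower genes) was -1.44 to -1.26 in batch 1 and 0.52 to 0.57 in batch 2 monolayers, and 1.05 to 1.22 and 2.35 to 2.76 in D11. At D3 it was -0.28, -0.13, 0.025, 0.087 and -0.021 in libraries 1, 3, 4, 5 and 6 and -1.001, -0.92, -0.95 and -0.48 in libraries 2, 7, 8 and 9. Library 4 thus lay among the batch 2 libraries of its set and library 7 among the batch 1 libraries of its set. Of these 338 genes 26 were themselves separated higher between the sets and 42 lower, so the measure is not independent of the sets, and many of the genes also change with time. Over the 15 and 33 of them that changed little from monolayer to D11 the values were -0.74, -0.53, -0.32, -0.29 and -0.47 against -0.99, -0.83, -0.92 and -0.70, and the sets overlapped in library 1 (-0.74) and library 9 (-0.70). Whether the batch labels of these libraries were exchanged was not tested, and set and batch cannot be told apart in the other 7.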

How the data were processed

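RNA sequencing of EPC2 cells was deposited by the authors as 1 table of TPM values for 19345 gene symbols in 32 libraries, 26 of them untreated. The submitters' processing notes name the human build hg38. No label or header names an aligner, a quantifier, an annotation or a strand setting. Since TPM keep no depth, the reads behind each library are unknown and an exact 0 can be a failed estimate. The 6 IL-13 columns could be tied to their group only and served in the low-value filter and in 1 alternative.

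Values were analysed as log2(TPM + 1) in 12221 genes with at least 1 TPM in at least 6 libraries (12220 without SPRR1A). The D3 sets were compared by overlap of their libraries, with no test. Untreated D11 was compared with monolayer, with batch as a term, and batch 2 with batch 1 within monolayers, D3 and D11, by limma 3.58.1 with an intensity trend in R 4.3.3, Benjamini-Hochberg adjustment over all genes and a threshold of 0.05; the code was tested on simulated data. Alternatives were other scalings, filters and pseudocounts, removal of mitochondrial transcripts and each library left out. The members and gene lists were chosen with earlier results of these data known. Named genes are the 10 largest gaps in each direction, the 2 largest in each direction per list, the 5 leading genes by batch label in each direction, the 3 genes in each direction where library 4 or 7 stood farthest from its set, and 42 fixed genes. Genes chosen after their values were seen are named as such. Promoter sequences are from RefSeq (GRCh38.p14), where 61 of the 93 genes with a gap of 2-fold or more were found, and cluster spans are from GENCODE 29.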

Additional observations from a re-analysis of the deposited data

Results flagged for a closer look

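Among 428 sets of values checked (genes named here within monolayers, D3 or untreated D11 libraries), 19 had 1 library far from the rest, and chance gives about 1 in 20. In monolayers the outlying library was the highest for LCE3D (3.3 TPM), CALML5 (0.7 TPM), SPRR2E (0.2 TPM), SPRR3 (0.7 TPM), CLDN17 (1 TPM), CXCL14 (0.2 TPM), CA9 (0.4 TPM), H2BC17 (1 TPM), H3C4 (2.7 TPM) and CD248 (0.2 TPM), and the lowest for IL36G (0.1 TPM). In untreated D11 spheroids it was the highest for CX3CL1 (0.1 TPM), LIF (0.2 TPM), FABP4 (0.4 TPM) and INHBB (3.1 TPM), and the lowest for THBS1 (22.9 TPM) and WNT4 (1.2 TPM). At D3 it was the highest for INHBB (0.4 TPM, library 6) and CRYBB3 (1.2 TPM, library 8). Most of these values lie near the smallest step of the deposited table.

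The batch difference at D3 was not the same as at D11 for 1315 genes with a positive and 103 genes with a negative change of the difference (limma interaction, adjusted p under 0.05). Among named genes it was -0.82 for CRYBB3 (adjusted p = 0.007), -2.94 for H4C4 (adjusted p = 0.016), -0.67 for CCN1 (adjusted p = 0.025), -0.61 for SLC6A6 (adjusted p = 0.031) and 1.91 for HBEGF (adjusted p = 0.046). H4C4 was listed at 0 in 6 of the 9 D3 libraries.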

How the results depend on the processing

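Genes higher in the SPRR1A-high libraries by 2-fold or more numbered 187 with a pseudocount of 0.1 and 51 with 5, against 93, and genes lower by 2-fold or more numbered 5 with a pseudocount of 0.1 and 6 with mitochondrial transcripts removed, against 0. Genes separated lower numbered 452 with a mean of at least 5 TPM, 1639 with median-of-ratios scaling, 2115 with quantile scaling and 5449 with mitochondrial transcripts removed, and genes separated higher 537 in the last. Leaving out 1 D3 library gave 95 to 158 and 1789 to 2405 genes higher (2-fold or more, and all) and 0 to 7 and 922 to 2149 lower; 158, 7 and 2149 came without library 9, and 1 of 2-fold lower without library 2.

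Between D11 and monolayer, genes higher numbered 1708 (mean of at least 5 TPM), 4997 (median-of-ratios), 4457 (quantile) and 1513 (mitochondrial transcripts removed), and genes lower 4705 (mean of at least 5 TPM) and 5014 (median-of-ratios); leaving out 1 library gave 2560 to 2654 and 7763 to 7916. By batch at D3, leaving out 1 library gave 0 to 1 genes higher (1 without library 4) and 0 to 0 lower, and without libraries 4 and 7 there were 1138 and 505. By batch at D11, genes higher numbered 1953 (median-of-ratios) and 1577 (quantile), and lower 1394 and 1552; leaving out 1 library gave 326 (without D11 library 7) to 622 and 3358 to 4213. In monolayers, genes higher in batch 2 numbered 2441 with a mean of at least 5 TPM, and leaving out 1 library gave 3621 to 3854 higher and 4520 to 4756 lower. The interaction gave 269 (median-of-ratios), 212 (quantile) and 161 (mitochondrial transcripts removed) positive genes, and 51 (mean of at least 5 TPM), 365, 334 and 23 negative ones. The cause was not tested in any of these.

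The D11 difference reversed for ITGA6 (0.22), MVK (0.53), ZMYM6 (0.40) and TRNP1 (0.18) with median-of-ratios scaling, for MVK (0.37), ZMYM6 (0.42) and KLF6 (-0.068) with quantile scaling, and for KLF6 (-0.37), ADAMTS1 (-0.29), SLC6A6 (-0.31), CCNG1 (-0.11) and HERPUD1 (-0.46) with mitochondrial transcripts removed. Of the named genes separated between the D3 sets, separation ended in 2 of 108 with median-of-ratios scaling, 5 of 108 with quantile scaling and 13 of 106 with mitochondrial transcripts removed. Same-numbered libraries did not deviate together throughout: r was -0.022 to 0.056 over 7 monolayer and D11 pairs (0 over 0.1), -0.16 to 0.16 over 7 D3 and D11 pairs (2 over 0.1) and -0.44 to 0.36 over 9 monolayer and D3 pairs (4 over 0.1). The numbers were therefore not taken as pairs, and with a replicate block beside batch 2425 genes rose and 7279 fell.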
